A study of Mus musculus with 2 samples.

Results

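The genes described here encode 3 groups of proteins that act in pre-mRNA splicing: the serine- and arginine-rich (SR) proteins, the heterogeneous nuclear ribonucleoproteins (hnRNPs) and the SF3a and SF3b subunits of the U2 small nuclear ribonucleoprotein (snRNP). They were taken by symbol, as every gene named Srsf with a number, Hnrnp, or Sf3a or Sf3b with a number. That rule uses no measured value, but it was chosen with earlier results of these data known. This gave 40 of the 27998 genes in the deposited count matrix, with 11 Srsf, 20 Hnrnp and 9 Sf3 genes. Male C57BL/6 mice gave the cells, which came from the lateral subventricular zone, the neural stem cell niche along the lateral ventricles. One library was made from 4 pooled mice of 2 months and the other from 8 pooled mice of 22 months, and no other treatment or genotype was named. Cells were sorted as positive for GLAST, a glutamate transporter of radial glia-like stem cells and astrocytes, and negative for the oligodendrocyte antigen O4, the erythroid antigen Ter119 and the leukocyte antigen CD45. From each pool 8000 sorted events were processed with the Chromium 3' chemistry, which counts molecules near the polyadenylated end by unique molecular identifiers (UMIs).

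No label ties the library number on a barcode to an age, so values are given for library 1 and library 2 and young was not compared with old. With 1 library per age there is no replicate, and no test was made. Each interval below is a 95% interval that covers counting error only. A member is called higher or lower between 2 classes of cells when it was at least 1.5-fold apart in the same direction in both libraries, with at least 20 UMIs over the pair of classes in each. Levels are UMIs of the gene per 1000000 UMIs of the class (CPM), so they are shares of a class's RNA and not amounts per cell.

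Splicing joins exons after the U1 snRNP marks the start of an intron and the U2 snRNP its branch point, where SF3a and SF3b hold the U2 snRNP on the RNA. SR proteins bind exons through RNA recognition motifs and recruit this machinery through their arginine- and serine-rich tails, while hnRNPs coat nascent transcripts and often keep splice sites from being used. The balance of both groups at an exon sets how often it is kept, and splicing programmes are known to shift as neural progenitors become neurons.

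The promoters of 5 members are shown here because these genes stand at both ends of the differences described below: Hnrnpa1, Hnrnpab and Srsf3 were among those furthest apart between classes, and Srsf5 and Hnrnph2 among the least. Each runs 5′ to 3′ on the gene's own strand for 300 bases, from 250 before to 50 after the start of a RefSeq transcript, on build GRCm38.p6. They lie at chr15:103240147-103240446 on the plus strand for Hnrnpa1, chr11:51606832-51607131 on the minus strand for Hnrnpab, chr17:29032410-29032709 on the plus strand for Srsf3, chr12:80945249-80945548 on the plus strand for Srsf5 and chrX:134600929-134601228 on the plus strand for Hnrnph2. Capitals mark matches, on either strand, to the CCAAT box (named by its letters), the GC box as GGGCGG, the TATA box as TATAAA, the E box as CACGTG or the ETS motif as CCGGAAGT, and in Srsf5 a GC box and an ETS match run together.
Hnrnpa1: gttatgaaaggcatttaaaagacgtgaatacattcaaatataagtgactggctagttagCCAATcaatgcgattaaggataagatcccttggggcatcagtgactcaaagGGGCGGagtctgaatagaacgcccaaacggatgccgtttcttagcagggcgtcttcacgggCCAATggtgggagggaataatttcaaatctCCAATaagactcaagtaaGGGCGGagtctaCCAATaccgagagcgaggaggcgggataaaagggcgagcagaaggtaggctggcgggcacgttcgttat
Hnrnpab: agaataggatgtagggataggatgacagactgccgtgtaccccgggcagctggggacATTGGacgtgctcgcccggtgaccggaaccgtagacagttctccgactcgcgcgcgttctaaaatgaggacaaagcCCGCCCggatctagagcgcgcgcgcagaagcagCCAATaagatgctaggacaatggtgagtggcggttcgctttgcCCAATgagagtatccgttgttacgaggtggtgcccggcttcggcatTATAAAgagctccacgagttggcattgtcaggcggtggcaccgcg
Srsf3: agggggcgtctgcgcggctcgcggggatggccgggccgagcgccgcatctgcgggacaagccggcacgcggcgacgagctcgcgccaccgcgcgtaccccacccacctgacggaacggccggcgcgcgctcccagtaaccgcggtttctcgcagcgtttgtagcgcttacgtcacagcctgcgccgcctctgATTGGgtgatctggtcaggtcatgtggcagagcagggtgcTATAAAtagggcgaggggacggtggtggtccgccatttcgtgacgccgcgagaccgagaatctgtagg
Srsf5: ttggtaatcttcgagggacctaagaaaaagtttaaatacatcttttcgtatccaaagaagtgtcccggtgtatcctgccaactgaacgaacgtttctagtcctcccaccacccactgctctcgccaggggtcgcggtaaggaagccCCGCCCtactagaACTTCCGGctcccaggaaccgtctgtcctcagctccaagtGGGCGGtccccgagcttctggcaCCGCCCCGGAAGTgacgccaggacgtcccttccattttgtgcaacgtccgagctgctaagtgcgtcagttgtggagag
Hnrnph2: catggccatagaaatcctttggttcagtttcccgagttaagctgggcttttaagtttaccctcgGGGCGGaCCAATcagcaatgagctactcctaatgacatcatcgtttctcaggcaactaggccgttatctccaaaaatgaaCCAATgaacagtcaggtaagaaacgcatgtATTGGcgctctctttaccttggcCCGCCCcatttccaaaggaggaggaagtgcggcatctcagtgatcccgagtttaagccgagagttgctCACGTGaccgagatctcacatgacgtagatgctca

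The window of Hnrnpa1 held 4 CCAAT boxes and 2 GC boxes, and that of Hnrnpab held 3 CCAAT boxes, 1 GC box and 1 TATA box. Srsf3 had 1 CCAAT box and 1 TATA box. Of the pair from among those that differed least, Srsf5 had 3 GC boxes, 2 ETS matches and no CCAAT box, and Hnrnph2 had 3 CCAAT boxes, 2 GC boxes and 1 E box. CCAAT boxes thus stood in windows at both ends. RefSeq windows were found for 36 of the 40 members. The GC box was in the windows of 28 of these (77.8%) and of 38.2% of the 27025 genes with a window, the CCAAT box in 19 (52.8%) and 41.1%, and the ETS motif in 8 (22.2%) and 4.31%. The E box was in 5 (13.9%) and 8.09%, and the TATA box in 5 (13.9%) and 15.7%. Of 3 further motifs, the NRF1 motif was in 1 member's window, and the CRE motif TGACGTCA and the E2F motif TTTCGCGC were in none, against 1.07%, 2.03% and 0.374% of all genes. A gene counted when any of its windows matched, and the 36 members had 49 windows, against 32851 for the 27025 genes. By window, the GC box was in 38 of 49 and 35.7% of all, the CCAAT box in 24 and 37.4%, and the ETS motif in 10 and 3.89%. The background was not limited to genes expressed in these cells, so these shares are not of like genes. A match is a run of letters and not evidence of a bound factor.

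Library 1 had 1849 barcodes and 10440891 UMIs, and library 2 had 2088 barcodes and 13330251 UMIs. After filters, 3888 cells fell into 16 clusters, and 4 barcode sequences occurred in both libraries. The 4 classes compared held 706 and 565 astrocyte-like cells (library 1 and library 2), 140 and 254 activated cells, 277 and 524 dividing cells and 309 and 401 neuroblast-like cells. Classes were named from marker lists that include the genes given next, so their levels describe the classes and do not test the names. Slc1a3, which encodes GLAST, stood at 2425 and 2380 CPM in astrocyte-like cells and at 177 and 191 CPM in neuroblast-like cells. Dcx, a microtubule protein of migrating neuroblasts, stood at 12.3 and 15.6 CPM against 559 and 459 CPM. Egfr, a receptor of activated progenitors, stood at 104 and 67.0 CPM in astrocyte-like cells and at 250 and 165 CPM in activated cells. Cells left unnamed had Egfr at 256 and 131 CPM. The proliferation gene Mki67 stood at 287 and 274 CPM in dividing cells. The neuroblast-like name follows the markers and does not separate migrating neuroblasts from young neurons. Median UMIs per cell were 3522 and 3462 in astrocyte-like, 8623.5 and 7693.5 in activated, 10162 and 10236.5 in dividing and 3187 and 3922 in neuroblast-like cells, so the classes also differed in depth.

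The 40 genes together made up 0.731% and 0.719% of the UMIs of astrocyte-like cells, 1.35% and 1.40% of those of activated cells, 1.60% and 1.58% of those of dividing cells and 1.44% and 1.46% of those of neuroblast-like cells. The share in astrocyte-like cells was thus the lowest of the 4 classes in both libraries, and the libraries lay close to each other within every class. SR genes summed to 2424 and 2323 CPM in astrocyte-like, 4517 and 4406 CPM in activated, 5217 and 4928 CPM in dividing and 4824 and 4833 CPM in neuroblast-like cells. Hnrnp genes summed to 3916 and 3939, 7598 and 8252, 9298 and 9547, and 8294 and 8542 CPM in the same order. The SF3 genes summed to 970 and 930, 1385 and 1297, 1507 and 1338, and 1257 and 1272 CPM. All 3 groups were lowest in astrocyte-like cells and highest in dividing cells in both libraries, and the SF3 genes spanned the narrowest relative range.

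Per cell the classes were further apart, because activated and dividing cells carried more UMIs. An astrocyte-like cell held a mean of 27.8 and 27.0 member UMIs, an activated cell 116 and 111, a dividing cell 163 and 159 and a neuroblast-like cell 55.8 and 68.3. With each cell thinned to 2000 UMIs, which left out 78 and 35 shallower astrocyte-like, 30 and 15 neuroblast-like, 4 and 2 dividing and 0 activated cells, the means were 14.1 and 14.2 in astrocyte-like, 27.3 and 27.4 in activated, 31.8 and 31.2 in dividing and 28.4 and 28.3 in neuroblast-like cells. For the members together, the order of the classes by thinned means was the order of their CPM. Thinning leaves the expected share of each cell unchanged and weighs cells equally, so it cannot show whether depth affects that share. For the SF3 genes alone the order differed in library 2, where the thinned sum was 1269.7 CPM in activated and 1266.3 CPM in dividing cells.

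**Figure D1:**
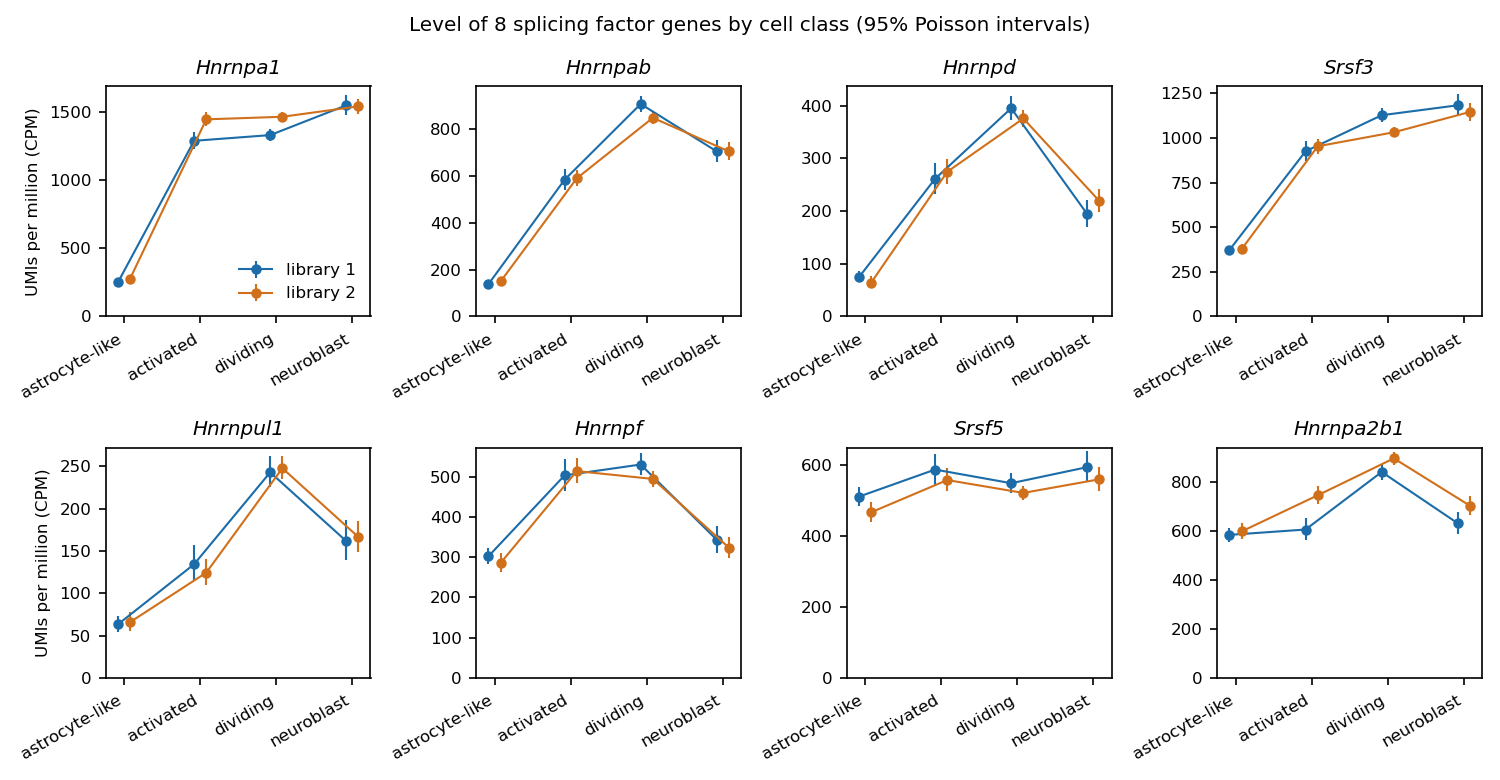
Level in CPM of 8 members in astrocyte-like, activated, dividing and neuroblast-like cells, 1 panel per gene, with a point per library and 95% Poisson intervals. Hnrnpa1 runs from 251 and 278 CPM in astrocyte-like to 1287 and 1444 CPM in activated cells, while Srsf5 stays between 467 and 595 CPM.

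The first comparison asked which members differed between activated and astrocyte-like cells. Of 39 members with enough UMIs, 23 were called higher in activated cells and 0 lower, beside 20.5% of all genes called higher and 25.7% called lower. By group these were 7 of 10 SR genes, 13 of 20 Hnrnp genes and 3 of 9 SF3 genes. The median log2 ratio over the 39 was 0.79 and 0.83, and over all 10053 genes measured -0.02 and -0.04. All 39 ratios were above 0 in both libraries, as were those of 4193 of the 10053 genes. For 33 members the counting interval lay above 0 in both. Intervals were not counted over all genes and are narrower for genes with more UMIs, so that count has no background. Srsf12 was the member not measured, at 0.75 and 2.83 CPM in astrocyte-like cells and no more than 4.28 CPM in any class.

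Among the SR genes, Srsf3 differed most. It encodes the smallest SR protein, which also takes part in messenger RNA export. Its level was 373 and 377 CPM in astrocyte-like cells and 926 and 953 CPM in activated cells, and the log2 ratio was 1.31 (interval 1.19 to 1.44) and 1.34 (1.22 to 1.46). The libraries differed by far less than the classes. Srsf6, an exon-binding SR protein, stood at 167 and 179 CPM against 394 and 405 CPM, 2.35- and 2.26-fold higher. Srsf7, which also works in export, stood at 224 and 199 CPM against 442 and 462 CPM, 1.97- and 2.33-fold higher. Srsf2, a nuclear SR protein of the speckles where splicing factors gather, stood at 459 and 430 CPM against 989 and 876 CPM, a ratio of 2.15 and 2.04. Srsf9, Srsf10 and Srsf11 were also called, with ratios between 1.64 and 2.24. Srsf10 is known as an SR protein that represses splicing once its phosphates are removed.

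The remaining SR genes did not pass 1.5-fold in both libraries. Srsf5, another exon-binding SR protein, was nearly level at 512 and 467 CPM in astrocyte-like and 588 and 558 CPM in activated cells, a log2 ratio of 0.20 and 0.26. Srsf1, the classical SR protein, was 1.42- and 1.63-fold higher, and Srsf4 1.62- and 1.49-fold, so each passed the threshold in 1 library only. The share of SR UMIs that were Srsf5 was 21.1% and 20.1% in astrocyte-like cells and 13.0% and 12.7% in activated cells, while that of Srsf3 was 15.4% and 16.2% against 20.5% and 21.6%.

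Among the Hnrnp genes, Hnrnpa1 differed most. It encodes an abundant shuttling protein that binds splicing silencers, and the gene lies at chr15:103240432-103246692 on the plus strand. Hnrnpa1 stood at 251 and 278 CPM in astrocyte-like cells and at 1287 and 1444 CPM in activated cells, which is 5.14- and 5.19-fold higher (log2 2.36, interval 2.23 to 2.49, and 2.38, 2.25 to 2.51). Hnrnpa1 has near-identical copies elsewhere in the genome, and how reads shared with them were counted is not given in the sources used here. Hnrnpab, at chr11:51600100-51606847 on the minus strand, encodes an RNA- and DNA-binding protein of the A and B type. It stood at 138 and 150 CPM against 585 and 591 CPM, 4.23- and 3.94-fold higher. Hnrnpd, at chr5:99955935-99978938 on the minus strand, encodes a protein that binds AU-rich elements and controls the decay of messenger RNAs. It stood at 74.6 and 64.2 CPM against 261 and 275 CPM, 3.50- and 4.28-fold higher. These 3 genes lay apart from the rest of the family in both libraries. Both Hnrnpab and Hnrnpd are among 12 members that overlap a gene on the other strand, here Phykpl and Gm17092, and whether counting used the strand is not given in the sources used here.

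The other 10 Hnrnp genes called higher had smaller ratios. Hnrnpa3, an A-type relative of Hnrnpa1, stood at 337 and 332 CPM against 809 and 851 CPM. Hnrnpu, a scaffold protein that also binds DNA, stood at 154 and 188 CPM against 347 and 370 CPM, and Hnrnpc, which binds uridine tracts, at 179 and 207 CPM against 381 and 430 CPM. Hnrnpa0, Hnrnpdl, Hnrnpf, Hnrnph1, Hnrnpll, Hnrnpm and Hnrnpul1 made up the rest, between 1.53- and 2.26-fold.

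The 7 Hnrnp genes not called included some with almost no difference. Hnrnpa2b1, whose product carries RNAs along cell processes, stood at 584 and 598 CPM in astrocyte-like and 605 and 745 CPM in activated cells, a log2 ratio of 0.05 (interval -0.08 to 0.18) and 0.32 (0.21 to 0.43). Hnrnph2, an X-linked gene whose protein binds guanine tracts, stood at 104 and 94.8 CPM against 105 and 109 CPM. Hnrnpul2, which has a DNA-binding SAP domain, stood at 39.5 and 36.3 CPM against 51.4 and 41.5 CPM. For the latter pair of genes the counting interval included 0 in both libraries. Hnrnpa1 and Hnrnpa2b1, close relatives, thus went apart: Hnrnpa1 was 6.40% and 7.07% of Hnrnp UMIs in astrocyte-like and 16.9% and 17.5% in activated cells, and Hnrnpa2b1 14.9% and 15.2% against 7.97% and 9.03%. Hnrnpk, a protein that binds cytosine tracts, was 16.1% and 14.5% against 10.8% and 10.4% of the family, though its own level was 1.30- and 1.51-fold higher in activated cells.

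Of the SF3 genes, Sf3b3, Sf3b4 and Sf3b5 were called. Sf3b3, a large scaffold subunit of SF3b, stood at 15.3 and 26.9 CPM in astrocyte-like and 57.2 and 52.8 CPM in activated cells, 3.74- and 1.96-fold higher. It rested on 41 and 57 UMIs in astrocyte-like cells. Sf3b5, a small subunit, stood at 139 and 141 CPM against 261 and 250 CPM, and Sf3b4, a subunit with RNA recognition motifs, at 67.5 and 57.5 CPM against 106 and 97.3 CPM. Sf3b1, the subunit that surrounds the branch point, stood at 192 and 156 CPM against 214 and 193 CPM, and Sf3b2, its partner near the branch point, at 200 and 198 CPM against 241 and 228 CPM. Sf3a1, a subunit of SF3a, was 1.40- and 1.24-fold higher. The group's median log2 ratio was 0.50 and 0.54, against 0.94 and 0.91 for SR and 0.88 and 0.84 for Hnrnp genes. No test compared the groups.

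**Figure D2:**
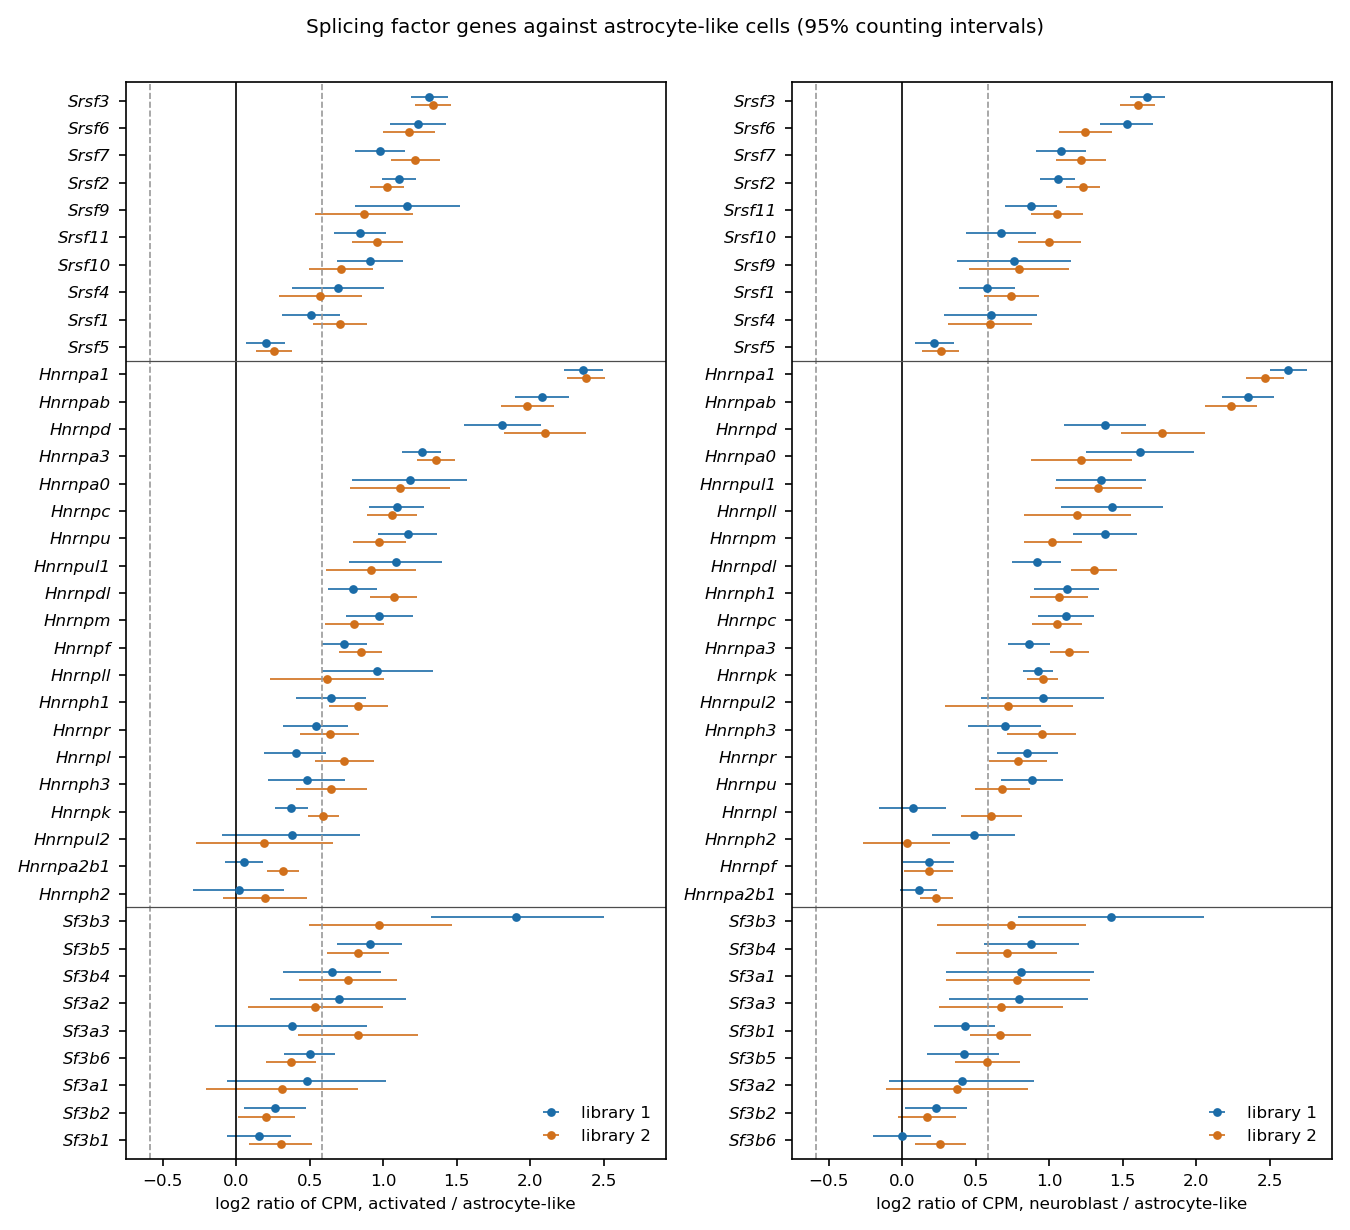
Log2 ratio to astrocyte-like cells of activated and of neuroblast-like cells for each measured member, with both libraries and their 95% counting intervals. Hnrnpa1, Hnrnpab and Hnrnpd stand furthest right among the Hnrnp genes for activated cells, and no member was called lower in either comparison.

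Other values moved with this comparison. Immediate early and dissociation genes, which respond to tissue handling, summed to 2657 and 2609 CPM in astrocyte-like cells and to 8276 and 6372 CPM in activated cells. Of 22 such genes listed, 16 had enough UMIs, 10 were called higher and 0 lower, and their part in the result was not tested. In neuroblast-like cells they summed to 2514 and 1870 CPM. Fos, which is among them, also stood on the marker list that named the activated class. Ribosomal protein genes took 7.57% and 9.08% of UMIs in astrocyte-like and 22.0% and 23.0% in activated cells, with 82 of 84 called higher, and 16.4% and 17.7% in dividing and 17.2% and 18.8% in neuroblast-like cells. Scaled to UMIs outside ribosomal protein and mitochondrial genes, all genes measured gave 29.2% higher and 20.5% lower with a median log2 ratio of 0.22 in place of -0.03, and 32 members were called higher and 0 lower. Markers of other cell types were lower in activated cells: ependymal markers summed to 192 and 272 CPM against 15.8 and 34.6 CPM, endothelial markers to 89.9 and 80.2 CPM against 18.2 and 16.3 CPM, microglia markers to 63.4 and 58.5 CPM against 7.46 and 11.4 CPM, and oligodendrocyte markers to 551 and 246 CPM against 381 and 86.9 CPM. Their part was not tested either.

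Neuroblast-like cells were compared with the same astrocyte-like cells, so the next values share that reference with those above. Of 39 members, 28 were called higher and 0 lower, beside 26.1% and 27.2% of all genes. They were 8 of 10 SR, 16 of 20 Hnrnp and 4 of 9 SF3 genes. The median log2 ratio was 0.88 and 0.79 over the members and 0.06 and 0.02 over all genes. Hnrnpa1 stood at 1547 and 1540 CPM in neuroblast-like cells, 6.17- and 5.53-fold above astrocyte-like cells. Hnrnpab stood at 706 and 706 CPM, 5.10- and 4.70-fold higher, and Srsf3 at 1183 and 1146 CPM, 3.18- and 3.04-fold higher. Sf3b3 was 2.67- and 1.67-fold higher, the highest of the SF3 genes by the mean log2 ratio. Its astrocyte-like level of 15.3 and 26.9 CPM rested on 41 and 57 UMIs. The difference was not shared by all neuroblast-like cells, since in their cluster 7 the level of Sf3b3, given below, was close to or under those values. At the low end, Hnrnpf, whose product binds guanine tracts, stood at 343 and 324 CPM against 302 and 286 CPM, a log2 ratio of 0.18 and 0.18. Hnrnpa2b1 had a log2 ratio of 0.11 and 0.23, Srsf5 of 0.22 and 0.26, Sf3b2 of 0.23 and 0.17, and Sf3b6, a small subunit that touches the branch point adenosine, of -0.00 and 0.26. Mature neuron markers summed to 1453 and 924 CPM in neuroblast-like and 307 and 401 CPM in astrocyte-like cells, and their part in this result was not tested.

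Between activated and dividing cells the members differed less. Of 39, 2 were called higher in dividing cells and 0 lower, beside 8.44% and 5.28% of all genes, and the median log2 ratio was 0.26 and 0.20 against 0.04 and 0.03 over all genes. Both members called, Hnrnpul1 and Hnrnpul2, encode SAP-domain relatives of Hnrnpu with known roles in the response to DNA breaks. Hnrnpul1 stood at 134 and 124 CPM in activated cells and at 243 and 248 CPM in dividing cells, a log2 ratio of 0.85 (interval 0.61 to 1.11) and 0.99 (0.80 to 1.19). Hnrnpul2 stood at 51.4 and 41.5 CPM against 82.7 and 78.1 CPM, a log2 ratio of 0.68 (0.28 to 1.11) and 0.91 (0.57 to 1.27). Between astrocyte-like and activated cells the interval of Hnrnpul2 had included 0. Below the threshold, Srsf4 had a log2 ratio of 0.61 and 0.51, Hnrnpab of 0.64 and 0.52, and Sf3a1 of 0.64 and 0.55. Hnrnpa1 was at 1329 and 1463 CPM in dividing cells, with a log2 ratio to activated cells of 0.05 (-0.04 to 0.13) and 0.02 (-0.04 to 0.08). For 20 members the counting interval lay above 0 in both libraries, and for 0 below, again with no such count over all genes. Hnrnph2 was the lowest, at 99.7 and 83.6 CPM in dividing cells, a log2 ratio of -0.08 and -0.38. In library 1 alone, 7 members passed 1.5-fold, and with the scaling outside ribosomal protein and mitochondrial genes 1 did. The share of all genes called at either setting is not given here.

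From dividing to neuroblast-like cells the ratios turned. These classes overlap in neuroblast markers, which summed to 8056 and 6776 CPM in cluster 9 of the dividing class. In the neuroblast-like class they summed to 5959 and 5118 CPM in cluster 3 and to 14808 and 14138 CPM in cluster 5. They were higher still in cluster 7, and the other dividing clusters lay below cluster 3. The part of this overlap was not tested. Of 39 members, 0 were called higher and 2 lower in neuroblast-like cells, beside 10.8% and 12.1% of all genes, with a median log2 ratio of -0.30 and -0.17 against -0.00 and 0.00 over all genes. Hnrnpd stood at 395 and 376 CPM in dividing and at 194 and 219 CPM in neuroblast-like cells, a log2 ratio of -1.03 (interval -1.24 to -0.82) and -0.78 (-0.94 to -0.63). Hnrnpf stood at 530 and 495 CPM against 343 and 324 CPM, a log2 ratio of -0.63 and -0.61. Hnrnpul1, at 162 and 166 CPM, had a log2 ratio of -0.59 and -0.58 and passed 1.5-fold in library 1 only. For 16 members the counting interval lay below 0 in both libraries, and for 2 above, again with no such count over all genes. Of those 2, Hnrnpk stood at 929 and 937 CPM in dividing and 1196 and 1105 CPM in neuroblast-like cells. The other, Hnrnpa1, had log2 ratios of 0.22 and 0.07. Srsf4 stood at 189 and 182 CPM against 117 and 131 CPM, a log2 ratio of -0.70 and -0.48. Srsf3 was near level, with a log2 ratio of 0.07 and 0.15. The count of 2 depended on the cells and libraries taken. It was 10 with marked doublets kept, which also re-clustered the cells, and 10 with the largest cluster of each class alone. In library 1 alone it was 8, and with a stricter filter on cells 1. The share of all genes called at these settings is not given here, so these counts are not read as a result about the members.

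**Figure D3:**
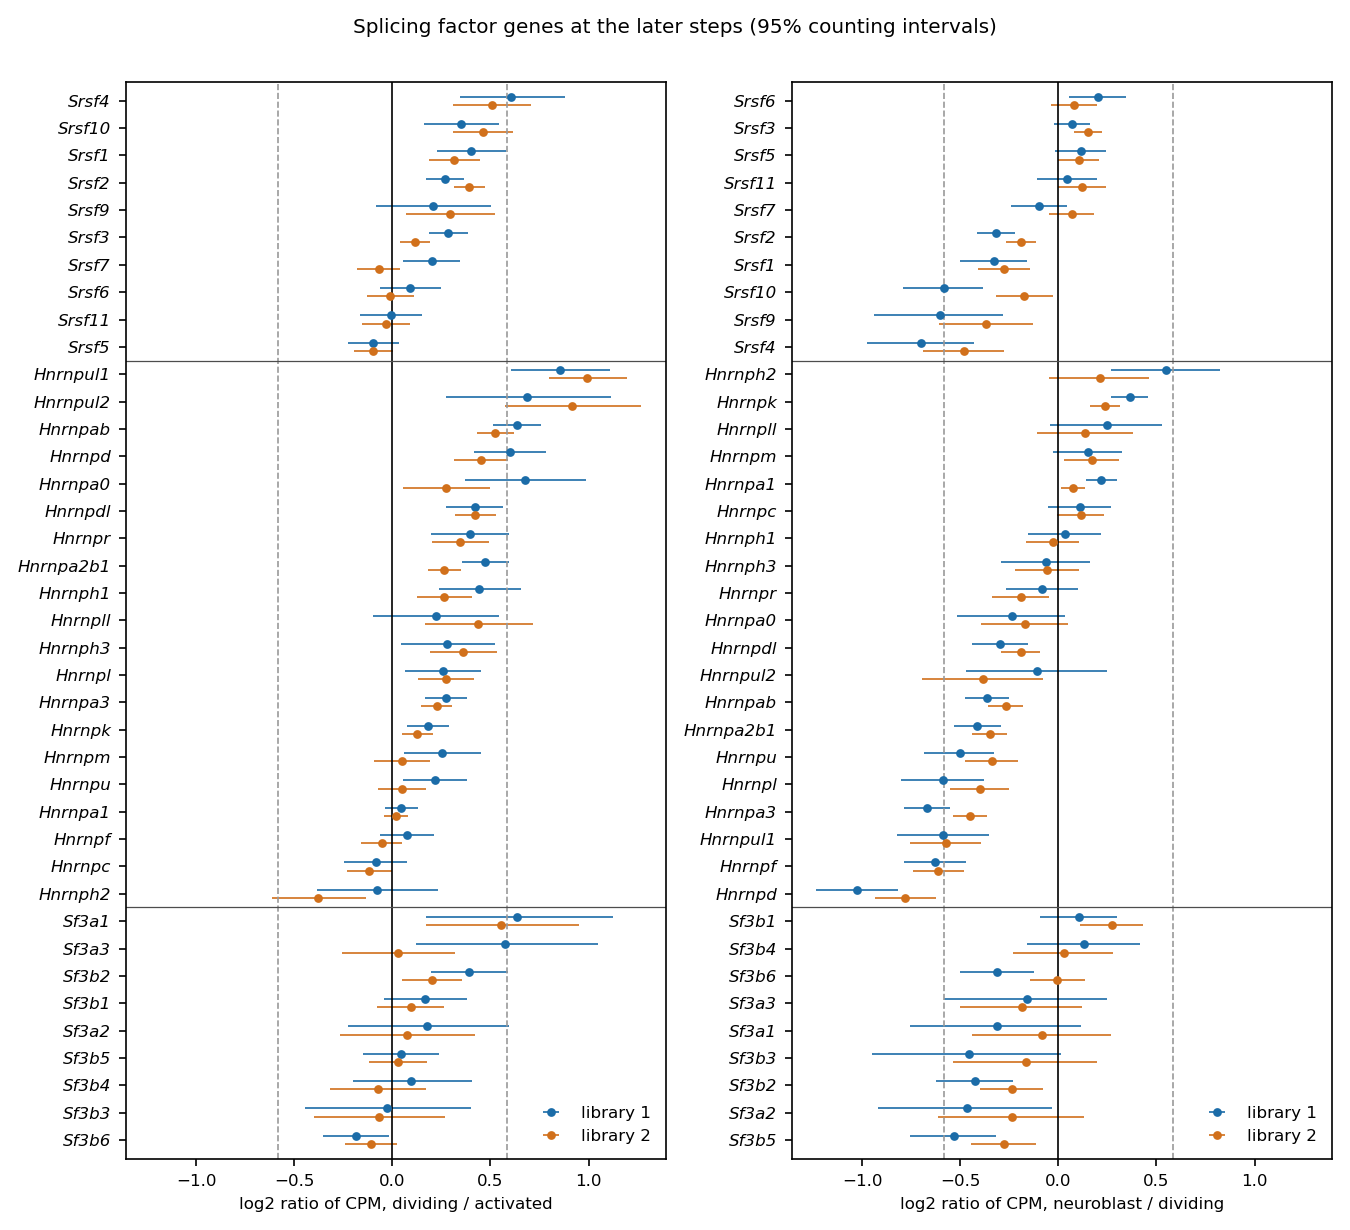
Log2 ratio of dividing to activated cells and of neuroblast-like to dividing cells for each measured member, with both libraries and their 95% counting intervals. Hnrnpul1 and Hnrnpul2 stand highest in the first comparison, and Hnrnpd stands lowest in the second, at -1.03 and -0.78.

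Within the SR and Hnrnp families, the shares of Srsf3, Srsf5, Hnrnpa1 and Hnrnpa2b1 were further from those of astrocyte-like cells than the other 3 classes were from each other. Hnrnpa1 was 14.3% and 15.3% of Hnrnp UMIs in dividing and 18.7% and 18.0% in neuroblast-like cells, against 16.9% and 17.5% in activated cells. Hnrnpa2b1 was 9.04% and 9.38% and 7.60% and 8.22% there. Srsf5 was 10.5% and 10.6% of SR UMIs in dividing and 12.3% and 11.6% in neuroblast-like cells, and Srsf3 was 21.6% and 20.9% and 24.5% and 23.7%. Each of these shares lay on the same side of both astrocyte-like values in all 3 other classes and both libraries. Shares of 1 family sum to a whole, so a higher share of one gene lowers those of the others.

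**Figure D4:**
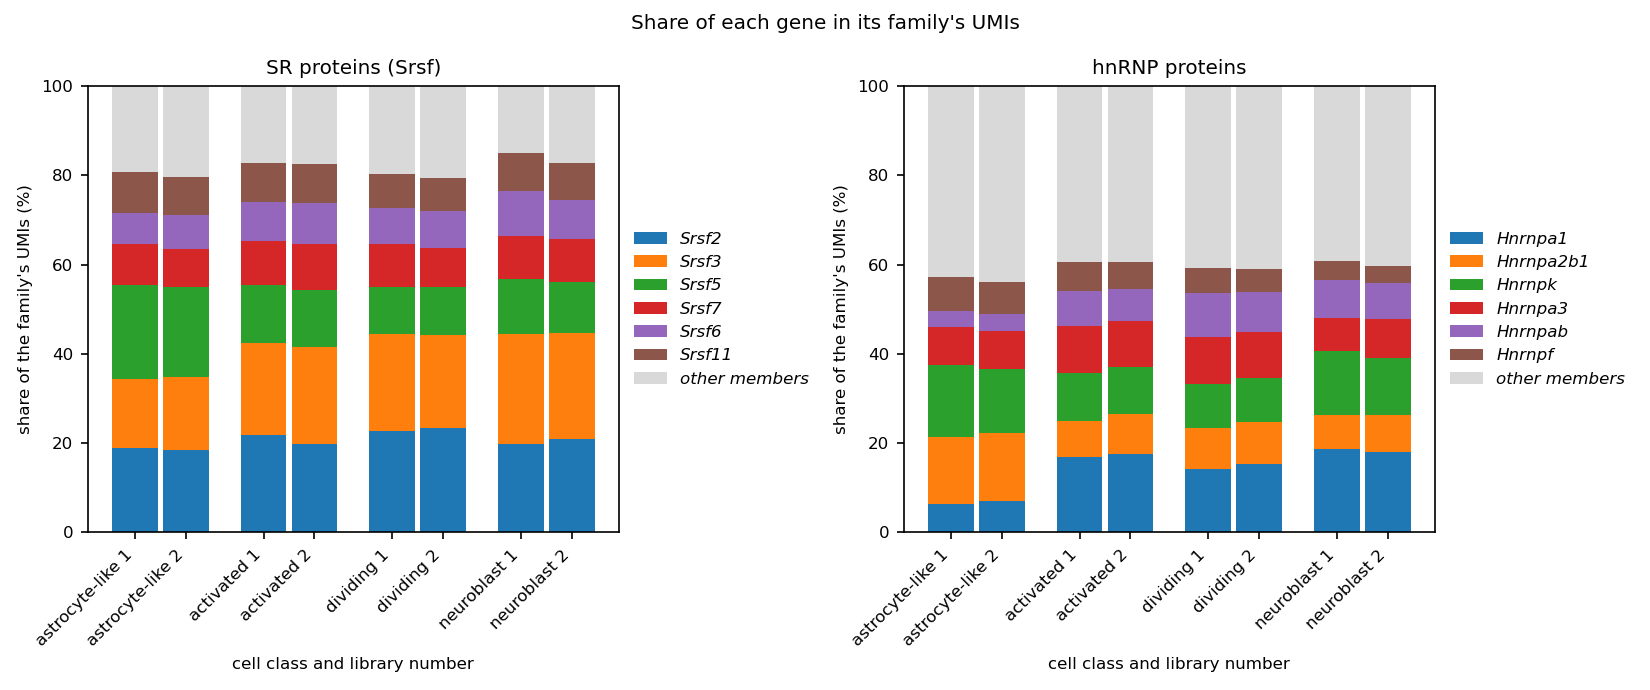
Share of each family's UMIs (percent) taken by single members in each class and library. The share of Hnrnpa1 goes from 6.40% and 7.07% in astrocyte-like to 16.9% and 17.5% in activated cells, and that of Hnrnpa2b1 from 14.9% and 15.2% to 7.97% and 9.03%.

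Cells of 1 class were not uniform. The astrocyte-like class joined cluster 0, of 519 and 301 cells, led by Cxcl14, Slc7a10 and Htra1, and cluster 2, of 187 and 264 cells, led by Gfap, an intermediate filament of astrocytes and stem cells, with Thbs4 and Prss56. Members summed to 6406 and 5791 CPM in cluster 0 and to 8914 and 8544 CPM in cluster 2. Of 39 members, 11 were called higher in cluster 2 and 0 lower, beside 16.9% and 9.58% of all genes, with a median log2 ratio of 0.47 and 0.56 against 0.22 and 0.20. Hnrnpa1 stood at 153 and 182 CPM in cluster 0 and at 423 and 372 CPM in cluster 2, 2.76- and 2.05-fold higher. Hnrnpf stood at 201 and 161 CPM against 482 and 406 CPM. Sf3a3, a subunit of SF3a, was 2.74- and 2.47-fold higher, and Hnrnpd 2.21- and 1.89-fold. Hnrnpc, Hnrnph2, Hnrnpll, Srsf3, Srsf9, Sf3b2 and Sf3b4 were the others. Immediate early and dissociation genes summed to 1432 and 1601 CPM in cluster 0 and to 4833 and 3582 CPM in cluster 2, and their part was not tested. Since cluster 2 held a larger part of the astrocyte-like cells of library 2, the class means mix both clusters in unequal shares.

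An unnamed cluster of 222 and 155 cells was led by the early response genes Junb, Socs3 and Atf3. Its immediate early and dissociation genes summed to 25939 and 26143 CPM, above every other cluster shown, and its members to 10372 and 10445 CPM, which lay between cluster 2 and the activated cells. Oligodendrocytes of library 1, the 101 cells that library had, gave a member sum of 6381 CPM, near that of cluster 0.

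Among the dividing cells, cluster 8 was led by S-phase histone genes and cluster 9 by mitotic genes together with the interneuron factors Dlx5 and Sp9. Of 39 members, 0 were called higher and 2 lower in cluster 9, beside 6.20% and 10.6% of all genes. They were Hnrnpf, at 630 and 593 CPM in cluster 8 and 327 and 378 CPM in cluster 9, and Sf3b3, at 62.9 and 56.6 CPM against 39.3 and 37.5 CPM. Cluster 10, led by mitotic genes without those factors, gave 0 called against either, beside 1.62% higher and 2.76% lower against cluster 8 and 4.39% and 4.94% against cluster 9.

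Neuroblast-like cells fell into clusters 3, 5 and 7. Cluster 7, led by Meg3 and Stmn2, had 1 member called higher and 5 lower than cluster 3, beside 19.7% and 13.6% of all genes. The higher one was Sf3b1, at 181 and 191 CPM in cluster 3, 197 and 240 CPM in cluster 5 and 352 and 373 CPM in cluster 7. The lower ones were Hnrnpa3, Hnrnpd, Srsf9, Sf3b5 and Sf3b3. Sf3b3 stood at 65.0 and 57.1 CPM in cluster 3, 52.1 and 40.0 CPM in cluster 5 and 15.5 and 22.7 CPM in cluster 7. Those values of Sf3b3 rest on few counts, 49 and 84 UMIs in the whole neuroblast-like class. Srsf9 stood at 140 and 131 CPM, 78.2 and 62.9 CPM, and 42.6 and 57.7 CPM. Hnrnpd stood at 279 and 255 CPM in cluster 3 and at 130 and 159 CPM in cluster 7. Cluster 5 had 3 members called lower than cluster 3, and 0 higher, beside 9.72% and 8.64% of all genes: Srsf9, Hnrnpl and Srsf7. Against cluster 5, cluster 7 had Sf3b1 higher and Sf3b3 lower, beside 8.08% and 3.75% of all genes. Cells of cluster 7 were shallower, at a median of 2660 and 2744 UMIs against 7064 and 6853 in cluster 3, and the part of depth in these differences was not tested.

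**Figure D5:**
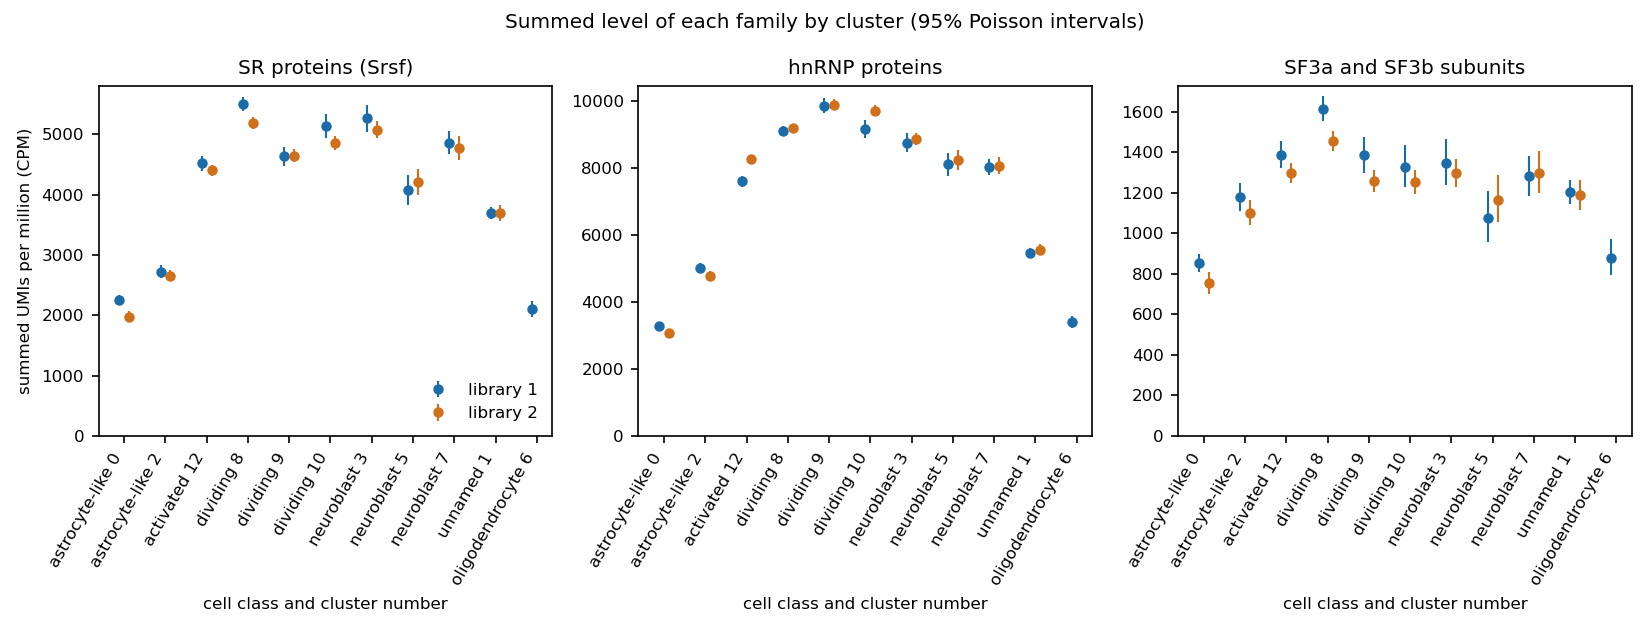
Summed CPM of the SR, hnRNP and SF3 genes in each named cluster, in the unnamed cluster 1 and in the oligodendrocyte cluster 6, with a point per library that had at least 50 cells and 95% Poisson intervals. Hnrnp genes summed to 3296 and 3061 CPM in cluster 0, 5015 and 4786 CPM in cluster 2 and between 9096 and 9889 CPM in the dividing clusters.

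The other genes of the splicing machinery were counted in 9 lists, to be read beside the share of all genes called in the same comparison. Between activated and astrocyte-like cells, 7 of 8 Sm core genes, whose proteins form the ring of the spliceosomal snRNPs, were called higher and 0 lower, beside 20.5% and 25.7% of all genes. Snrpf had the highest log2 ratio, 1.95 and 1.61, and Snrpn the lowest, 0.49 and -0.11. Of U1 snRNP genes 2 of 3 were called higher, of U2 snRNP and 3′ splice site factors 7 of 10, and of tri-snRNP and LSm genes 10 of 18, with 0 lower in each. Of these, Lsm2 had log2 ratios of 2.01 and 2.12 and Puf60 of -0.45 and -0.14. The exon junction complex, which marks joined exons, had 5 of 6 higher, and the catalytic factors around Prpf19, with the complex it names, 4 of 12, with Prpf19 lowest at -0.78 and -0.45. Proteins of the hnRNP type under other names had 13 of 17 higher, from Rbm3 at 1.87 and 1.73 to Cirbp at -0.42 and -0.36, a pair of cold-inducible RNA-binding proteins.

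Regulators and relatives of SR proteins were counted apart. Of the 7 kinases that phosphorylate SR proteins, 1 was called higher and 0 lower in activated cells, again beside 20.5% and 25.7%: Srpk1, with log2 ratios of 0.93 and 0.99, while Clk4 had -0.36 and -0.63. SR-related proteins had 5 of 15 higher and 1 lower. Tra2b, a splicing activator, had log2 ratios of 1.55 and 1.68, and Son, a large speckle protein, of -1.30 and -1.02. From dividing to neuroblast-like cells, beside 10.8% of all genes higher and 12.1% lower, 2 of 7 kinases and 1 of 8 Sm core genes were called higher, and 3 of 18 tri-snRNP and LSm genes and 1 of 12 catalytic factors lower. These shares rest on so few genes that none is read as a property of its list, and the other 5 lists had 0 called. Clk4 had log2 ratios of 0.77 and 0.90, Snrpn of 0.93 and 0.80, and Lsm2 of -1.09 and -1.05. Against astrocyte-like cells, beside 26.1% of all genes higher and 27.2% lower, neuroblast-like cells had 7 of 8 Sm core, 10 of 18 tri-snRNP and LSm, 5 of 6 exon junction complex and 13 of 17 hnRNP-type genes higher and 0 lower. In the same comparison 1 of 3 U1 snRNP genes, 5 of 10 U2 snRNP and 3′ splice site factors, 3 of 12 catalytic factors and 2 of 7 kinases were higher and 0 lower. SR-related proteins had 9 of 15 higher and 1 lower, Son at -0.85 and -0.82. Between dividing and activated cells these lists held at most 1 gene called in either direction each.

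Between library 1 and library 2 within a class, few members were 1.5-fold apart. In astrocyte-like cells 1 of 39 was, beside 16.5% of all genes: Sf3b3, 1.76-fold higher in library 2. In activated cells 1 of 39 was, beside 17.7%: Sf3a3, at 43.1 and 68.6 CPM, 1.59-fold higher in library 2. In dividing cells 0 of 39 were, beside 12.9%, and in neuroblast-like cells 1 of 39 was, beside 17.9%: Hnrnph2, at 146 and 96.8 CPM, 1.51-fold higher in library 1. These rest on 41 and 57 UMIs for Sf3b3, 52 and 139 for Sf3a3 and 175 and 181 for Hnrnph2. The background counts every gene with 20 or more UMIs, and most members carried far more, so the shares are not of equally counted genes. The median log2 ratio of library 1 to library 2 over the members was 0.02 in astrocyte-like, -0.04 in activated, 0.07 in dividing and 0.00 in neuroblast-like cells. Since each library is 1 pool of mice, a difference between them cannot be told apart from one of pool, age or preparation.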

How the data were processed

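Single-cell RNA-seq libraries from 2 pools of mice were read from 1 deposited matrix of UMI counts per gene and barcode, raw and whole-numbered. Per the submitters' processing notes, Cell Ranger 2.0.0 and the builds GRCm38.p3 and mm10 were used. The way cells were called, libraries were merged and the strand was used is not given in the sources used here. Each deposited barcode ends in a library number that no label ties to an age. The other deposited columns hold gene symbols and barcodes.

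Barcodes under 500 genes or over 10% mitochondrial UMIs were dropped, which removed 9 of library 1 and 13 of library 2. Scrublet, with an expected rate of 1.5%, marked 16 (0.865%) and 11 (0.527%) as doublets, which were removed, leaving 1824 and 2064 cells. Counts were scaled to 10000 per cell and logged, and 2000 variable genes outside the gene lists and members gave 30 principal components, 15 neighbours and Leiden clusters at resolution 1 (scanpy 1.11.5, Python 3.11.15). Clusters were named from marker lists when at least 3 markers were 1.5-fold above the other cells. With no own marker among the 10 leading genes, over 50% of the class's markers had to be, a condition set after the clusters were seen. It left cluster 1, of 222 and 155 cells, unnamed and outside the classes compared. In all, 270 and 264 cells were unnamed, and the effect of leaving them out was not tested.

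UMIs were summed per class and library and divided by all UMIs of the class. With 1 library per age nothing was tested. Intervals are exact Poisson or, for ratios, exact binomial, and cover counting error only. The members, gene lists and comparisons were chosen with earlier results of these data known. The genes named are the 3 highest and 3 lowest per family and comparison with at least 50 UMIs over the pair of classes in each library, members 1.5-fold apart between libraries, and those called. Other genes, the clusters described within a class and the 5 promoters were picked after their values were seen. The calling step was also run on simulated counts, with changes larger than 1.5-fold put into genes of at least 50 UMIs. Those counts held counting error only, so the run cannot speak for changes near 1.5-fold or for spread between cells or pools. Promoters are from RefSeq on GRCm38.p6, and gene positions from the GENCODE annotation of GRCm38.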

Additional observations from a re-analysis of the deposited data

How the results depend on the processing

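In all, 16 alternatives were tried on 12 counts of members, of which 2, library 1 alone and library 2 alone, were chosen after seeing the data. Of the resulting values, 149 stayed within 1.5 times the count reported and 35 did not. Several of the reported counts were 0, and each value of 0 that matched one was among the 149. The 149 therefore do not measure how stable the other counts were. At 1.5-fold, members higher in activated than in astrocyte-like cells numbered 21 to 32 and members higher in neuroblast-like than in astrocyte-like cells 21 to 31, and at 2-fold they numbered 9 and 13. At every setting 0 members were lower in either comparison. The share of all genes called can change with the setting and is not given for the counts of this section. None of them is read as a result about the members. The count lower in neuroblast-like than in dividing cells, 2 as reported, was 1 with cells of at least 1000 genes and at most 5% mitochondrial UMIs, 10 with marked doublets kept, 1 with no gene kept out of the variable genes, 4 by the mean over cells, 5 with each cell thinned to 2000 UMIs, 10 with the largest cluster of each class, 9 at a lower fold threshold, 0 at 2-fold and 8 in library 1 alone. Keeping marked doublets also re-clustered the cells, and neuroblast-like cells then numbered 266 and 271 in place of 309 and 401. With at least 1 UMI on each side, 1 member, Srsf12, was higher in neuroblast-like than in dividing cells. The count higher in dividing than in activated cells, also 2, was 1 when scaled outside ribosomal protein and mitochondrial genes, 9 at the lower fold threshold, 0 at 2-fold and 7 in library 1 alone. Between libraries, astrocyte-like cells (1 as reported) gave 0 with the stricter cells, at Leiden resolution 2, at 100 UMIs and at 2-fold, and 2 with at least 1 UMI on each side. Activated cells (1) gave 0 at resolutions 0.5 and 2 and at 2-fold, 2 with at least 1 UMI and 3 at the lower fold threshold. Dividing cells (0) gave 1 with at least 1 UMI and 1 at the lower fold threshold. Neuroblast-like cells (1) gave 2 with doublets kept, 0 under either other scaling, 2 when thinned, 3 with the largest cluster, 4 at the lower fold threshold and 0 at 2-fold. Apart from the fold thresholds, the UMI minimums and the single libraries, whose construction sets the change, the cause was not tested. No paired analysis was possible because the libraries are of different ages and not replicates of 1 group, and the ratios between classes were already taken within each library. Depth limits the members with few UMIs: in astrocyte-like cells Srsf12 rested on 2 and 6 and Sf3b3 on 41 and 57.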
